A study of Mus musculus with 2 samples.

Results

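Gm21269 (ENSMUSG00000108448.2) is a long intergenic noncoding RNA gene of mouse chromosome 7, at chr7:73816546-73838898 on the plus strand of GRCm38, with 1 annotated transcript of 12456 nt in 4 exons. It was selected on measured values of these same libraries, namely its many small RNA reads of 24 to 32 nt and its reads on both strands. Its reads were those of 24 to 32 nt that matched the transcript exactly on either strand. There were 944468 such reads of 23566 distinct sequences, 470799 of the 43173943 reads of that length in one library and 473669 of 47015300 in the other. The number of reads and the presence of both strands are therefore descriptions and not findings.

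The study sequenced small RNA from testes of mice at 23 days post partum (dpp), on the C57BL/6 background. The labels describe 1 sample of Stambp-ps1+/- mice and 1 of Stambp-ps1-/- mice, that is, heterozygous and homozygous for an altered allele of a pseudogene of the deubiquitinase gene Stambp. The deposited record places both tables of read sequences under the Stambp-ps1-/- sample, while one file name holds the word KO and the second one het. The names KO-marked and het-marked table are used below for this reason alone, and neither was assigned to a genotype, so that no value below is a comparison of genotypes. The sources used here do not state how the allele was made or whether animals were pooled. Sequencing depth was 54384974 reads for the KO-marked and 62773871 for the het-marked table, with read lengths from 18 to 32 nt. Each table being 1 library, replicates were lacking and no test was run. Intervals are exact 95% Clopper-Pearson intervals of 1 library, or the corresponding interval of a ratio, and cover counting error only. Levels are in RPM, the number found in every 1000000 sequenced reads, and 3 reads correspond to 0.0552 RPM in the KO-marked and 0.0478 RPM in the het-marked table. The germ cell miRNAs fixed as markers were present in both tables, from 186 and 140 RPM for Mir34b to 7619 and 8010 RPM for Mir871, while the liver miRNA Mir122 had 0 reads in either and the blood miRNA Mir451a had 3.51 and 1.86 RPM.

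PIWI-interacting RNAs (piRNAs) are germline small RNAs that lead PIWI proteins to complementary transcripts. In mouse spermatocytes at the pachytene stage, most are cut in a phased order from long single-stranded noncoding transcripts, which the transcription factor A-MYB (Mybl1) activates, often from promoters that fire in both directions. Their first base is usually U, and those bound by the PIWI protein MILI are shorter than those bound by MIWI. When a piRNA guides the cutting of a complementary RNA, the cut falls opposite the bond between its bases 10 and 11, and the RNA downstream of the cut can become a piRNA of the other strand. Such a pair overlaps by 10 nt at the 5′ ends, and the U at the first base of one faces an A at base 10 of the other, which is called the ping-pong mark.

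The sequences with most reads show what the transcript yielded. They are written 5′ to 3′ as DNA, with T for U, and named by strand and by the position that their first base has along the transcript, counted from 1 at its 5′ end. In the first 6, the capitals mark base 1 and, on the antisense strand, also base 10.
sense 8447, chr7:73824992-73825021 (+): Tatgtgaatttcaactgttggctccacagg
sense 676, chr7:73817221-73817247 (+): Ttggagattgaatttttgaaaaagcct
sense 675, chr7:73817220-73817247 (+): Tttggagattgaatttttgaaaaagcct
antisense 6066, chr7:73822582-73822611 (-): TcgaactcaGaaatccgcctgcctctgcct
antisense 6120, chr7:73822637-73822665 (-): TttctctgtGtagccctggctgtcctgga
antisense 2704, chr7:73819221-73819249 (-): TgttgtagaAtacagttcttagtgatgcc
All 6 begin with U, and of the antisense sequences the third has A at base 10. The sense sequence at 8447 had 35761 reads in the KO-marked and 29175 in the het-marked table. The antisense sequence at 6066 had 646 and 1231 reads, and matched 369 different places among the annotated transcripts of the mouse. The antisense sequence at 2704 had 191 and 206 reads and matched this 1 place.

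Gm21269 gave reads almost wholly from its sense strand, so that the name of a precursor of both strands holds for a small share of them only. The KO-marked table had 462225 sense and 8574 antisense reads, an antisense share of 1.82% (1.78 to 1.86%). The het-marked table had 462300 sense and 11369 antisense reads, a share of 2.40% (2.36 to 2.44%). Only 59.5% of the antisense reads in the KO-marked and 54.6% in the het-marked table had 1 place among annotated transcripts, against 99.4% and 99.5% of the sense reads. With reads of 1 place alone, the antisense share was 1.10% (1.07 to 1.13%) and 1.33% (1.30 to 1.37%).

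The antisense reads with several places lay in a single short stretch. Of these reads, 3469 of 3471 in the KO-marked and 5156 of 5158 in the het-marked table started between positions 6016 and 6136, a stretch of 121 nt at chr7:73822561-73822681. The sequences there had a median of 420 places in the KO-marked and 438 in the het-marked table. As background, their letters resemble the B1 family of short interspersed repeats. A repeat annotation was not used here, and which of the many places produced these reads cannot be told apart. They made up 40.5% and 45.4% of all antisense reads, and the sense strand held 2466 and 2035 reads in the same stretch. The antisense strand is therefore described below from the reads with 1 place, 5103 in the KO-marked and 6211 in the het-marked table.

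Set beside other genes, this antisense share was near the middle. With each read shared over its places, Gm21269 had 1.22% antisense reads in both tables together. Of the other genes with at least 1000 reads, 588 had a lower and 513 a higher share, and the median over the 1102 such genes was 0.80%. Among the 105 long intergenic noncoding genes, 46 had a lower share, 58 a higher one, and 45 exceeded 10%. The precursors chosen for comparison were more strictly 1-stranded. Gm49794 had 0.220% antisense reads in the KO-marked and 0.248% in the het-marked table, and 1700029M20Rik had 0.0218% and 0.0246%. For 1700001L05Rik there were 2 antisense reads in each table, and for Gm5878 there were 0 and 1. The neighbouring noncoding gene Gm10619, described below, was nearer to Gm21269, with 0.772% and 0.784%. The 5 genes with the share nearest to that of Gm21269 were the protein-coding genes Gabpb2 (1.22%), Golga2 (1.24%), Rnf24 (1.21%) and Hdhd2 (1.20%) and the noncoding gene 4930463O16Rik (1.23%). Each of them had far fewer reads, from 10.1 RPM in the KO-marked and 8.43 RPM in the het-marked table for Rnf24 to 95.3 and 80.3 RPM for Gabpb2.

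Antisense reads with 1 place came mostly from the first 3500 nt of the transcript, a portion that also gave many of the sense reads. Sense reads started from position 10 in the KO-marked and 12 in the het-marked table to positions 12366 and 12412, near the annotated end. Antisense reads with 1 place reached from position 29 to positions 8954 and 9360, all within exon 1. The first 3500 nt held 93.6% of the antisense reads in the KO-marked and 93.8% in the het-marked table, but 48.5% and 49.6% of the sense reads. Within these first 3500 nt, the antisense strand had 2.09% and 2.48% of the reads, and after them 0.137% and 0.165%. The first 500 nt alone held 30.1% and 29.6% of the antisense reads with 1 place, and 4.17% and 4.07% of the sense reads.

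**Figure D1:**
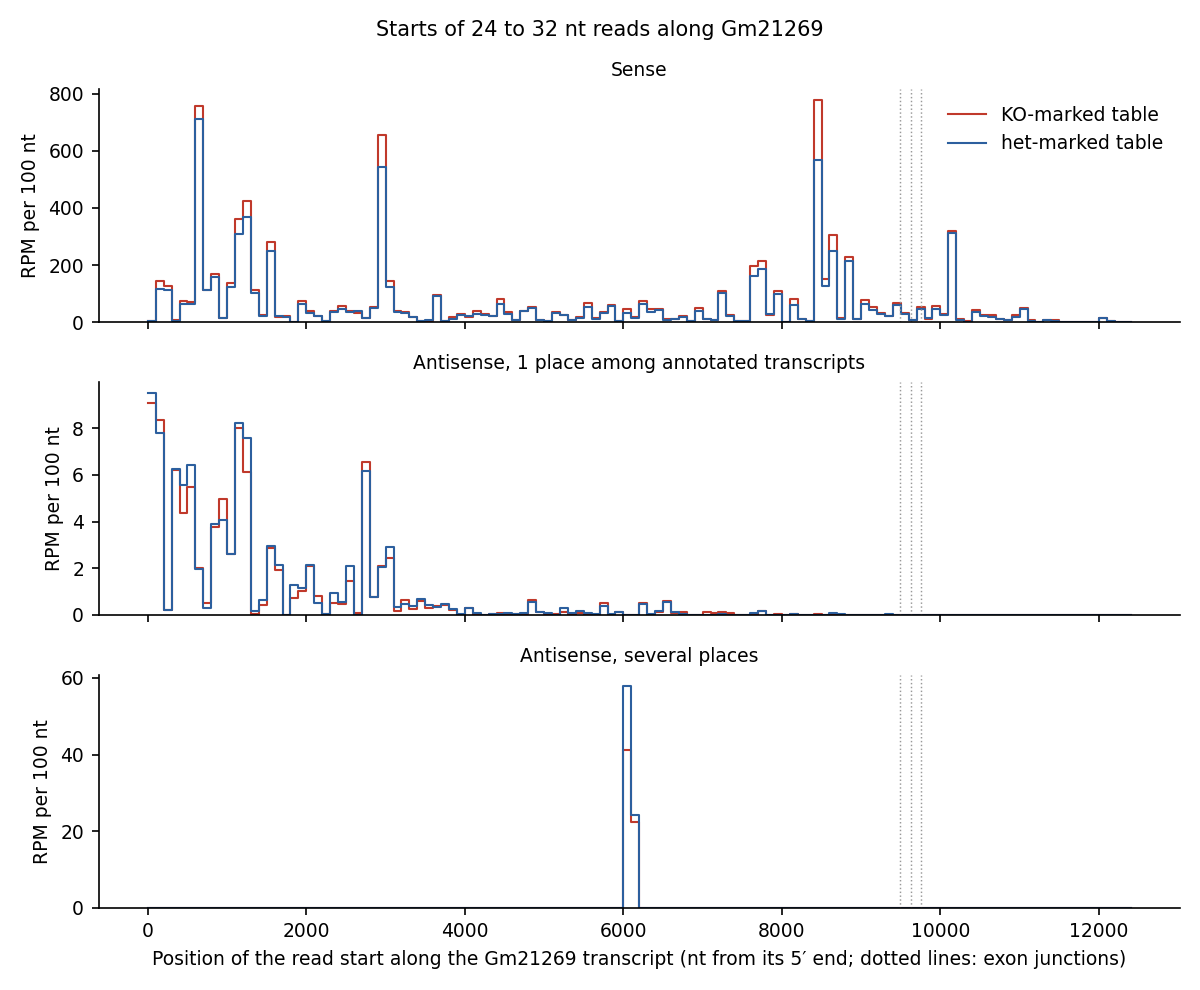
Starts of 24 to 32 nt reads along the Gm21269 transcript in bins of 100 nt, in RPM, for sense reads (top), antisense reads with 1 place (middle) and antisense reads with several places (bottom), with 1 line per table and dotted lines at the exon junctions. Each panel has its own scale, the antisense reads with 1 place lie mostly in the first 3500 nt, and those with several places form a single peak between positions 6016 and 6136.

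The sense reads covered all 4 exons. Exon 1 (chr7:73816546-73826031, 9486 nt) had 816 sense RPM per kilobase in the KO-marked and 704 in the het-marked table, and held 91.1% and 90.6% of the sense reads. Exon 4 (chr7:73836197-73838898, 2702 nt) had 247 and 226 RPM per kilobase. The short exons 2 and 3, of 143 and 125 nt, had 289 and 248, and 396 and 344 RPM per kilobase. Sense reads also crossed the exon junctions with at least 5 nt on each side, where the match needs the spliced sequence. There were 207 KO-marked and 183 het-marked reads over the junction of exons 1 and 2, 310 and 335 over that of exons 2 and 3, and 2133 and 2146 over that of exons 3 and 4. No antisense read crossed any of them, which allows up to 0.0552 and 0.0478 RPM. All antisense reads started within exon 1, so none could cross a junction and these reads cannot show whether an antisense RNA was spliced. Sense reads thinned out near the 3′ end, from 3830 KO-marked and 3984 het-marked reads starting between positions 11001 and 11500 to 295 and 339 between 11501 and 12000. They were more frequent again in the last bin, 12001 to 12456, with 1006 and 1191 reads.

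A small share of the starts held most of the sense reads, and positions 8447, 2918, 676 and 675 led in both tables. Sense reads started at 5014 positions in the KO-marked and 5100 in the het-marked table, 40.3% and 40.9% of the transcript. The top 100 positions held 66.7% and 65.7% of the reads, and 37 and 39 positions held 50%. The leading start, position 8447, had 710 RPM in the KO-marked and 504 RPM in the het-marked table, which is 8.35% and 6.85% of the sense strand, and 92.6% and 92.1% of its reads were 30 nt long. Position 2918 followed with 496 and 403 RPM, with 32 nt, the longest length in the tables, as its most frequent length (48.8% and 49.7%). Positions 676 and 675, which differ by 1 base, had 333 and 292 RPM and 304 and 299 RPM. Their main lengths were 27 nt (91.2% and 91.3%) and 28 nt (93.1% and 93.7%), so that both kinds of read ended at the same base, as the printed sequences show. Antisense reads with 1 place were lower in level. Of their starts, 24 of 652 in the KO-marked and 23 of 684 in the het-marked table held 50% of these reads. Such counts cannot rank the strands by concentration, since the antisense strand had far fewer reads and starts. The leading antisense start with 1 place, position 2704, had 4.96 and 4.72 RPM. It held 5.29% and 4.77% of these reads, a smaller share than position 8447 held of the sense strand. The top 100 antisense positions held 77.7% and 78.3%, a larger share than on the sense strand, but out of far fewer starts.

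Read lengths differed between the strands. Sense reads had a median of 29 nt and a peak at 30 nt in both tables. Of them, 37.0% in the KO-marked and 38.2% in the het-marked table were 26 to 28 nt long, the range usual for MILI, and 51.8% and 50.5% were 29 to 31 nt long, the range usual for MIWI. Antisense reads with 1 place had a median and a peak of 30 nt, with 19.5% at 26 to 28 nt in both tables and 67.9% and 69.1% at 29 to 31 nt. The ratio of the longer to the shorter class was thus 1.40 and 1.32 on the sense strand and 3.48 and 3.55 on the antisense strand. The proteins that held these reads were not measured.

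**Figure D2:**
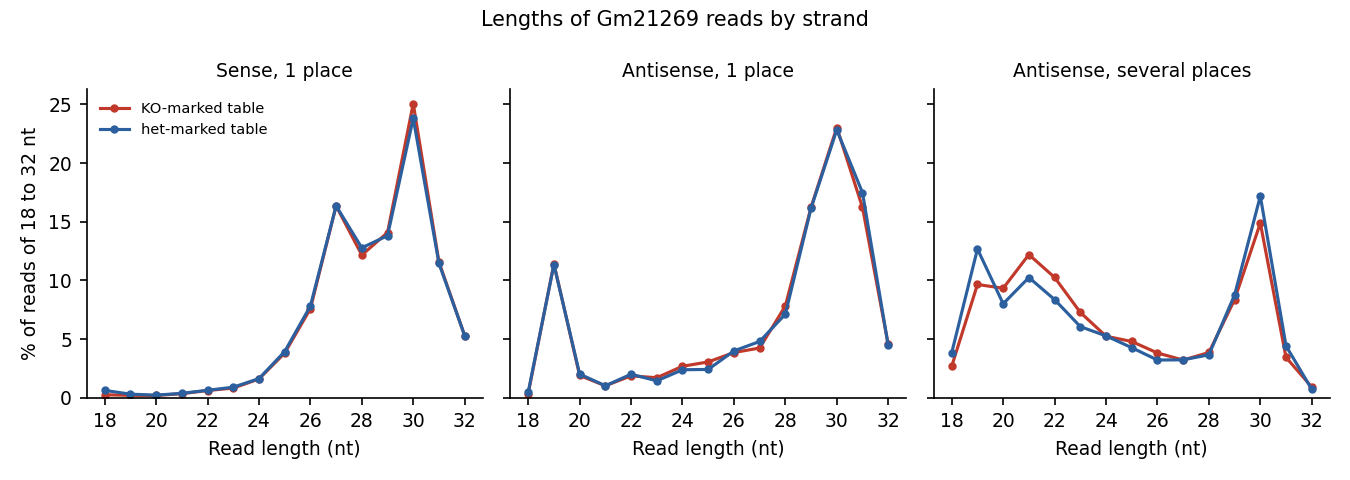
Length of Gm21269 reads from 18 to 32 nt as a percentage of the reads on each strand, for sense reads with 1 place, antisense reads with 1 place and antisense reads with several places, with 1 line per table. Sense reads show peaks at 27 and 30 nt, antisense reads with 1 place peak at 30 nt and again at 19 nt, and the 2 tables follow each other closely for reads with 1 place.

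The first base also separated the strands. Of the sense reads, 91.9% (91.8 to 92.0%) in the KO-marked and 91.6% (91.5 to 91.7%) in the het-marked table began with U, against 27.0% U in the transcript. Of the antisense reads with 1 place, 48.8% (47.4 to 50.1%) and 48.5% (47.2 to 49.7%) began with U. At base 10 the order was the reverse. An A stood there in 75.9% (74.7 to 77.0%) and 76.0% (74.9 to 77.1%) of the antisense reads with 1 place, against 27.0% A in the complementary strand, and in 21.1% and 21.3% of the sense reads. The several-place antisense reads had neither pattern in this form, with U first in 71.1% and 73.0% and A at base 10 in 36.8% and 35.5%. By distinct antisense sequences, U was first in 45.8% and 45.2% of those with several places and in 45.2% and 46.2% of those with 1 place. The classes thus differed in U by reads only. A at base 10 was in 31.1% and 31.2% of the distinct sequences with several places, against 64.8% and 64.5% with 1 place. The base directly after the 3′ end of sense reads was U in 34.6% and 35.6%.

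The antisense reads paired with sense reads at a 10-nt overlap. By reads of both tables together, the pair of distinct sequences with the largest smaller member was at positions 1234 and 1243, and a second such pair shared its antisense read. The capitals mark the 10 bases of overlap, which are complementary to each other.
sense 1234, chr7:73817779-73817805 (+): TGAAATGATCactctaccctggctatg
antisense 1243, chr7:73817759-73817788 (-): GATCATTTCAactgaagtgaaactgaacct
sense 973, chr7:73817518-73817549 (+): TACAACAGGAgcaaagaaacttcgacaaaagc
antisense 982, chr7:73817498-73817527 (-): TCCTGTTGTAactgtgaagataatgatggt
The sense sequence at 1234 had 174 reads in the KO-marked and 195 in the het-marked table, and its antisense partner 72 and 126. In this pair the sense read begins with U and the antisense read has A at base 10 but begins with G. The pair at 973 and 982 was added after its values were seen, as the next pair at other positions, with 108 and 118 sense and 84 and 78 antisense reads. In the KO-marked table alone its smaller member had more reads than that of the first pair (84 against 72). Both members of the pair at 973 and 982 begin with U and have A at base 10.

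Over all pairs of starts on opposite strands with overlaps of 1 to 20 nt, 10 nt ranked first however the pairs were weighted. With the product of the reads at both starts, 29.6% of pairs in the KO-marked and 27.3% in the het-marked table overlapped by 10 nt, and the next overlap, 5 nt, held 8.66% and 9.02%. For reads with 1 place these shares were 35.1% and 32.7%. The product gives weight to the few abundant starts, and with each pair of positions counted once the share at 10 nt was 6.72% and 6.71%, against 5.20% and 5.21% at the next overlap. Of the antisense reads with 1 place, 88.2% and 90.1% had a sense start at the 10-nt overlap, while at the next most frequent overlap, 8 nt in the KO-marked and 7 nt in the het-marked table, 68.1% and 71.6% had one. Counted by antisense starts in place of reads, 491 of 652 (75.3%) and 523 of 684 (76.5%) had a partner at 10 nt, against at most 58.3% and 59.4% at any other overlap. Those with such a partner had A at base 10 in 83.0% and 82.0% and U first in 44.4% and 44.8%. The 601 and 616 antisense reads without one had A at base 10 in 22.8% and 21.9% and U first in 81.0% and 82.0%. Base 10 of an antisense read faces the first base of a sense read at this overlap. That base was U in most sense reads, and in 62.2% and 62.4% of the distinct sense sequences with 1 place. The A share of the class with a partner is therefore in part fixed by how the class was formed and is no separate result.

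**Figure D3:**
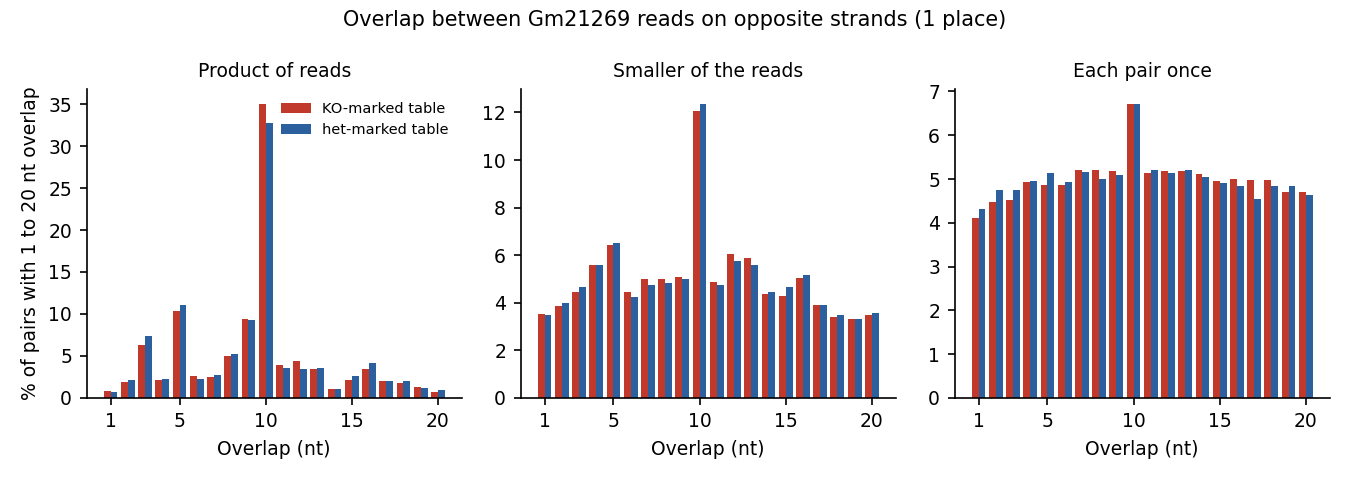
Overlap between sense and antisense reads of Gm21269 with 1 place, as the percentage of pairs at each overlap from 1 to 20 nt, with pairs weighted by the product of the reads (left), by the smaller number (middle) or counted once (right), with 1 bar per table. The bar at 10 nt is the tallest in each panel, and its lead is smallest where each pair counts once.

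Shorter reads, which the 24 to 32 nt range leaves out, held a further pattern on the antisense strand. Reads of 18 to 23 nt made up 2.48% (2.44 to 2.52%) of the sense reads with 1 place in the KO-marked and 3.11% (3.06 to 3.16%) in the het-marked table. Of the antisense reads with 1 place they made up 18.3% (17.3 to 19.3%) and 18.3% (17.5 to 19.2%), and 713 of 1143 and 863 of 1395 of these were exactly 19 nt long. The most frequent 19-nt antisense read and the sense read that it faces are printed with capitals at the last base of the former and at base 11 of the latter.
antisense 747, chr7:73817274-73817292 (-): tgagccctgtgtcctgaaC
sense 719, chr7:73817264-73817289 (+): tgggaatgagGttcaggacacagggc
The 19-nt read had 194 reads in the KO-marked and 203 in the het-marked table, and the sense read 163 and 183. The 3′ end of 690 of the 713 KO-marked antisense reads of 19 nt, 96.8% (95.2 to 97.9%), faced base 11 of a sense read. So did 832 of 863 in the het-marked table, 96.4% (94.9 to 97.5%). The printed sequence alone gave 194 and 203 of these reads, and the intervals treat copies of 1 sequence as independent. For antisense reads of 21 nt the share was 51.6% (38.7 to 64.2%) and 46.2% (34.8 to 57.8%), where 45.9% and 47.5% of the first 3500 positions carried a sense start. Reads of 20 nt had a high share as well, 98 of 119 (82.4%) and 134 of 154 (87.0%), and the few of 18 nt had 60.9% (14 of 23) and 73.0% (27 of 37). For 22 and 23 nt the share was between 37.6% and 57.0% in the tables. Among the 32 bases that the end of a 19-nt antisense read could face, base 11 ranked first, with 37.8% and 33.6% of pairs by the product of reads and 5.40% and 5.13% with each pair counted once. The next base held 3.83% and 3.70% when each pair was counted once. Base 11 also ranked first for sense reads of 19 nt, with 12.6% and 14.9% by the product and 6.09% and 6.35% with each pair counted once. The base directly after the 3′ end of a 19-nt read was also the most frequent start of a longer read of the same strand, among distances of 1 to 30 nt, with 26.6% and 26.8% of pairs on the antisense and 15.3% and 15.1% on the sense strand by the product of reads. The ends of 24 to 32 nt reads did not show this by the product, where a distance of 1 held 5.01% and 5.43% of pairs on the sense strand (5th of 30 distances) and 2.95% and 2.53% on the antisense strand (18th and 22nd). With each pair of positions counted once it ranked 11th and 12th on the sense strand. On the antisense strand it then ranked first with 3.77% and 3.79%, against 3.73% and 3.59% at the next distance. In pairs, this was 117 against 116 in the KO-marked and 133 against 126 in the het-marked table.

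**Figure D4:**
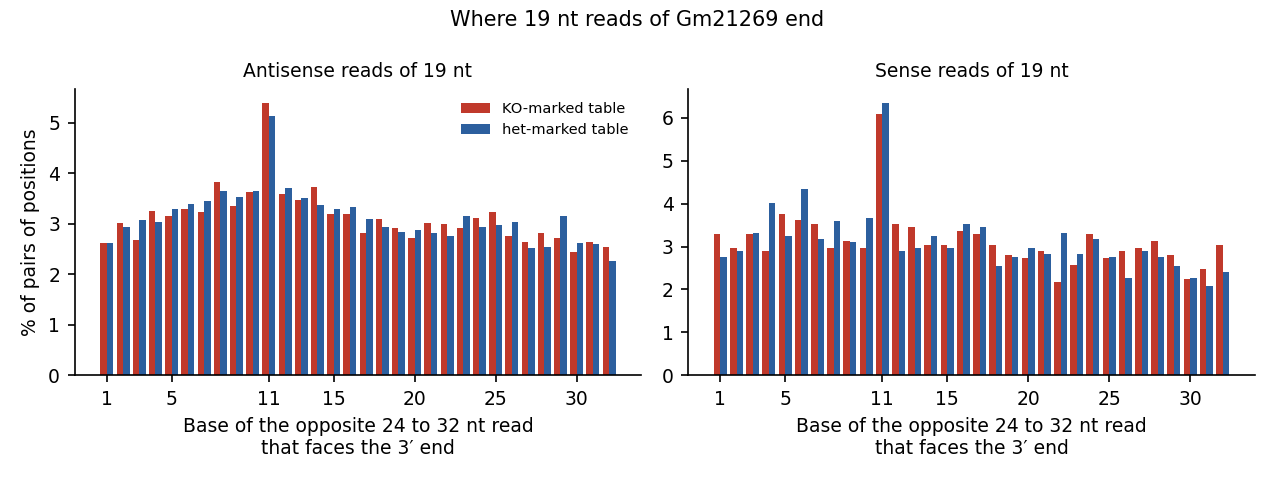
Base of an opposite-strand read of 24 to 32 nt that faces the 3′ end of a 19-nt read of Gm21269, as the percentage of pairs of positions with each pair counted once, for antisense (left) and sense (right) reads of 19 nt with 1 place and 1 bar per table. The bar at base 11 is the tallest in both panels and both tables.

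The miRNA gene Mir7234 is annotated inside exon 1, at chr7:73819590-73819641 (positions 3045 to 3096), and its reads had the lengths of piRNAs. Of the reads within its hairpin, 6189 in the KO-marked and 5939 in the het-marked table, 99.5% and 99.5% were 24 to 32 nt long. No read in either table was equal to either mature form, which allows a level of up to 0.0552 and 0.0478 RPM. A single 30-nt read made up 77.8% and 76.7%, and its last 23 bases, in capitals, are the letters of the RefSeq 3p form, whose own capitals mark the seed.
read at 3067: taggtagAAACGTCTTTCTAGGGTAGAAGG
mmu-miR-7234-3p, RefSeq (GRCm38.p6): aAACGUCUuucuaggguagaagg
The read at 3067 begins with U, as most sense reads of Gm21269 do, and the 3p form begins with A. Position 3067 was the 11th most frequent sense start of the transcript, with 111 and 93.4 RPM.

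Gm21269 lies head to head with Gm10619 (ENSMUSG00000074067.9), a noncoding gene at chr7:73781429-73816503 on the minus strand, and 42 bases separate their first bases. Gm10619 had 3033 RPM in the KO-marked and 2638 RPM in the het-marked table, with antisense shares of 0.772% and 0.784%. Its log2 ratio between the tables was 0.20, as were that of Gm21269 and the median over the 4551 genes with at least 200 reads. The RefSeq promoter window of Gm10619 (GRCm38.p6), written here on the plus strand, spans the space between the genes, and the first base of Gm21269 lies 92 bases after its first base. The capitals mark CAACTG or its reverse complement CAGTTG, the core letters known for MYB proteins.
chr7:73816454-73816753 (+): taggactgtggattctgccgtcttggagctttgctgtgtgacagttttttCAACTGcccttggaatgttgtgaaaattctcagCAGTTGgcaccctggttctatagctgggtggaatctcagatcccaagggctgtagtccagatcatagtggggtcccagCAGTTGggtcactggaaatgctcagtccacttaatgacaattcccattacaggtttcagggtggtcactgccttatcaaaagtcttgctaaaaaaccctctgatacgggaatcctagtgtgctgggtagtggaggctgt
The window held 3 matches on both strands together. It runs on into exon 1 of Gm21269, and the last printed match lies there and not between the genes. The motif was chosen after the letters were seen, 13.7% of the 32851 promoter windows of the same length held at least 1 match, and 37 of them (0.113%) held at least 3. A match is a description of the letters and not of binding, which was not measured.

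The level of Gm21269 differed between the tables by as much as that of the middle gene. It was 8657 RPM (8632 to 8681) in the KO-marked and 7546 RPM (7524 to 7567) in the het-marked table, and by reads it ranked second of 4551 genes with at least 200 reads of 24 to 32 nt. The log2 ratio of the tables, KO-marked over het-marked, with 0.5 reads added to each count, was 0.20 (0.19 to 0.20). Over the 4551 genes the median was 0.20, with 5th and 95th percentiles of -0.12 and 0.50, and 16 genes, 0.352%, were at or past 1 in size. Scaling to miRNA reads in place of all reads gave -0.049, so the direction rests on the scaling.

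The strands differed in this ratio. Sense reads had a log2 ratio of 0.21 (0.20 to 0.21), from 8499 RPM in the KO-marked and 7364 RPM in the het-marked table. Antisense reads had -0.20 (-0.24 to -0.16), from 158 and 181 RPM. The antisense reads with 1 place had -0.08 (-0.13 to -0.02), from 93.8 and 98.9 RPM. Those with several places, which may come from other places, had -0.36 (-0.43 to -0.30). The values of sense reads and of antisense reads with 1 place lay between the 5th and 95th percentiles of genes, -0.12 and 0.50. The values of all antisense reads and of those with several places lay below. These count each read in full, whereas the gene values share each read over its places, so they are unlike measures. With reads shared over places, Gm21269 had 5134 antisense reads in the KO-marked and 6249 in the het-marked table, near the numbers with 1 place. On the scale of miRNA reads the sense value was -0.04 and that of antisense reads with 1 place -0.32. The sense ratio thus changed its direction with the scaling. Another scale shifts all log2 ratios alike, so the order of the strands was bound to stay the same and is no further result. Reads of 18 to 23 nt of Gm21269 had -0.17 (-0.20 to -0.13) on the sense strand. Over the whole tables, reads of that length made up 20.6% in the KO-marked and 25.1% in the het-marked table. Library variation was not measured, and its part in these differences was not tested.

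Single starts held their place between the tables. Of 760 sense starts with at least 100 reads in both tables together, 554 had a log2 ratio above 0 and 206 below, with a median of 0.19. The median over the 4551 genes with at least 200 reads was 0.20, so most genes lay above 0 as well. At or past 1 in size were 7 of the 760 sense starts, 0.921%, of which 4 were higher in the KO-marked and 3 in the het-marked table. Of the 4551 genes, 16 (0.352%) were at or past 1. The sense start farthest from 0 was position 6056 with 883 KO-marked and 358 het-marked reads, a log2 ratio of 1.51, and it lies in the stretch of several places. At the other end, position 8600 had 35 and 95 reads and a log2 ratio of -1.22. Of the 27 antisense starts with 1 place and at least 100 reads, 0 (0.0%) were at or past 1 in size, the values ran from -0.53 to 0.39, and 19 were below 0. Spearman's rho of the RPM between the tables was 0.96 over the 760 sense and 0.94 over the 27 antisense starts, as a description of starts that share 1 library on each side.

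**Figure D5:**
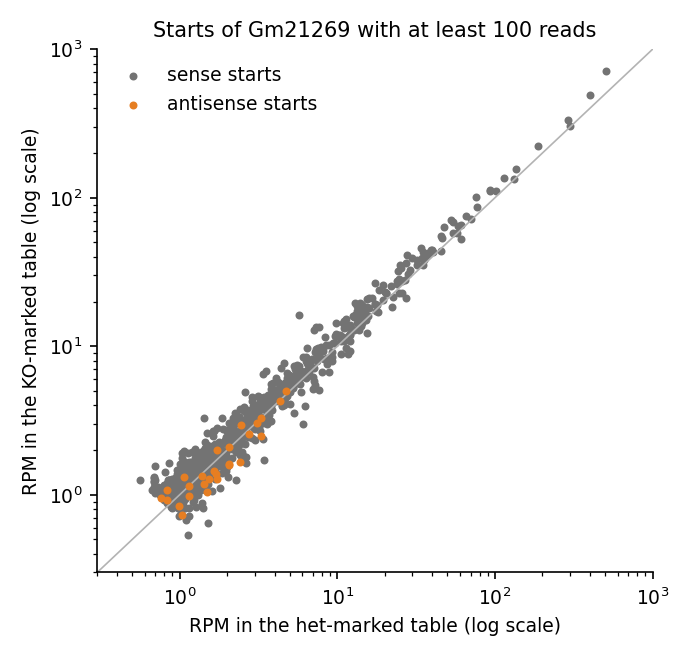
RPM of each Gm21269 start with at least 100 reads in the 2 tables together, in the het-marked (horizontal) and the KO-marked table (vertical), on log axes, with sense starts in grey, antisense starts with 1 place in orange and the line of equal values. Most sense starts, 554 of 760, lie above a log2 ratio of 0, and 19 of 27 antisense starts lie below it, where the median over the 4551 genes is 0.20.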

How the data were processed

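The deposited tables pair every distinct sequence with a raw, unscaled count, as the values show. The labels' protocols give Trizol extraction, gel purification and the TruSeq Small RNA kit, and the sources used here do not state the trimming, aligner or build. Reads of 24 to 32 nt were matched exactly to the GENCODE M21 transcript of Gm21269 on both strands, each counting in full. For places and other genes, bwa 0.7.19 matched reads with 0 mismatches to all GENCODE M21 transcripts, projected to GRCm38. A place is a distinct start and strand among annotated transcripts, since a genome sequence was not used here, and other genes' reads were shared over their places. An overlap of k nt means that the antisense start lay k-1 bases downstream of the sense start. Python 3.11.15, pandas 2.3.3 and scipy 1.17.1 did the rest, and the calculations were tested on simulated data. Comparison genes were Gm49794, 1700001L05Rik, 1700029M20Rik and Gm5878, with the 5 genes of nearest antisense share, and the sequences named were the 3 with most reads per strand and 2 pairs. Gm21269, these genes and the rules were chosen with earlier results of these data known. Mir7234, Gm10619, the reads of 18 to 23 nt, the 3500 nt boundary and the motif were added after seeing the data.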

Additional observations from a re-analysis of the deposited data

How the results depend on the processing

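No paired analysis was possible because each table is 1 library. Values are given for the KO-marked and then the het-marked table. The level was 8147 and 7091 RPM with 26 to 32 nt, 8542 and 7426 RPM with 1-place reads, 8546 and 7429 RPM with reads shared over places, and 2573 and 2447 distinct sequences per 1000000 distinct sequences. The antisense share was 1.69% and 2.25% with 26 to 32 nt, 1.10% and 1.33% with 1-place reads, and 8.67% and 9.24% of distinct sequences, and 2.29% in the het-marked table without the top sequence of each strand. The first-U share with 1-place reads was 92.1% and 91.8% (sense) and 48.8% and 48.5% (antisense), and by distinct sequences 61.9% and 62.0% (sense) and 45.3% and 46.1% (antisense). The share of pairs overlapping by 10 nt was 10.8% and 11.3% by the smaller number of reads, 6.58% and 6.57% with each pair counted once, 31.6% and 22.4% without the largest pair, and 35.1% and 32.7% with 1-place reads. The log2 ratio was 0.11 scaled to 24 to 32 nt reads, 0.072 by distinct sequences, and turned to -0.049 scaled to miRNA reads. The cause was not tested.

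Both tables are deposited under 1 sample, so nothing here compares genotypes. Intervals hold counting error alone. A read with 1 place among annotated transcripts may have others in the genome, and no read over 32 nt is in the tables, so the length peak at 32 nt of some starts may be cut off.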
